A study of Homo sapiens with 4 samples.

Results

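The HSP90 chaperones and their co-chaperones were followed as 10 genes in SNU-668, an established human gastric cancer line. They were picked by symbol from a table of 16692 genes: HSP90AA1, HSP90AB1, HSP90B1, TRAP1, AHSA1, STIP1, FKBP4, FKBP5, PTGES3 and CDC37, and all 10 were found. The series has 4 libraries, 1 for each of 4 groups. Ribosome footprints, the stretches of mRNA that a translating ribosome shields from RNase, and RNA were each counted in cells given shRNA-ALKBH3, which targets a nucleic acid demethylase of the AlkB family, and in cells transfected with a control shRNA, whose genotype is given as WT. All 4 groups are described as erastin-resistant cells, while the library names carry RLS3, and the labels do not settle which compound was used. The sources used here do not say whether the cells are 1 clone or a pool. There were no replicates, so no p-value is given, and every interval is a 95% counting interval for those particular libraries.

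HSP90 is an ATP-driven chaperone that finishes the folding of signalling proteins, above all kinases and steroid receptors, and it works as a dimer whose cycle is steered by co-chaperones. HSP90AA1 encodes the stress-inducible and HSP90AB1 the constitutive cytosolic form, HSP90B1 the endoplasmic reticulum (ER) form called GRP94, and TRAP1 the mitochondrial form. STIP1 (HOP) hands clients over from HSP70, CDC37 brings in kinases, AHSA1 (AHA1) speeds up ATP hydrolysis, PTGES3 (p23) holds the closed state, and the immunophilins FKBP4 and FKBP5 bind steroid receptor complexes. Cytosolic HSP90 genes and several co-chaperone genes are known targets of the heat shock factor HSF1, and HSP90B1 is a known target of the unfolded protein response.

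The promoters of the HSP90 genes were chosen for display after the footprint values below were seen. The promoter windows printed for HSP90AA1 and HSP90AB1 are the ones that held matches. They carry a different stress element from the window of HSP90B1, and any link between the elements and the footprints was not tested. Promoter windows came from RefSeq (GRCh38.p14) and hold 250 bases before to 50 after each annotated start site. Windows were found for 9 of the 10 genes, 15 windows in all, and only the 250 bases before the start are printed, 5′ to 3′ on the strand of the gene. Capitals in HSP90AA1 and HSP90AB1 mark TTCNNGAA or GAANNTTC, arrangements of paired heat shock element units, which can share 3 bases and read the same on both strands. Capitals in HSP90B1 mark CCAAT and CCACG set 9 bases apart, the ER stress element, or its reverse complement.
HSP90AA1, chr14:102087045-102087294, minus strand: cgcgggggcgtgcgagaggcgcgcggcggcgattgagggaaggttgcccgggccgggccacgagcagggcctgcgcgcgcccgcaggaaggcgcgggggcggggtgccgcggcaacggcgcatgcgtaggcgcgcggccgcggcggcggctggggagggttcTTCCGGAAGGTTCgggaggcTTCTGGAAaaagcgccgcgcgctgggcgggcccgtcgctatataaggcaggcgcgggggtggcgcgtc
HSP90AB1, chr6:44247693-44247942, plus strand: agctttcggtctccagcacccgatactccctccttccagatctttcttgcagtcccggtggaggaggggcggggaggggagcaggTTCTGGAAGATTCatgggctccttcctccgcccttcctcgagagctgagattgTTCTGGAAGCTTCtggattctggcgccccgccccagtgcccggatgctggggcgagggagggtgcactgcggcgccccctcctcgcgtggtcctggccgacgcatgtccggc
HSP90B1, chr12:103930160-103930409, plus strand: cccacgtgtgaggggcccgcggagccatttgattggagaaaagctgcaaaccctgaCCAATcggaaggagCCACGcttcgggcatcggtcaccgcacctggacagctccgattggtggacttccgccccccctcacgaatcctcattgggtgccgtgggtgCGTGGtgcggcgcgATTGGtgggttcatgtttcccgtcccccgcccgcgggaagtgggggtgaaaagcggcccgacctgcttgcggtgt

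In the printed HSP90AA1 window the matches began at positions -88, -83 and -68, where 0 is the first transcribed base, and in that of HSP90AB1 at -165, -160, -112 and -107. The other window of HSP90AA1 and the other two of HSP90AB1, which belong to other annotated start sites, had no match. STIP1 had 1 match, at position 13, past the start site. No window of CDC37, PTGES3, AHSA1, FKBP5, TRAP1 or HSP90B1 had a heat shock match. The heat shock pattern was thus present in 3 of the 15 windows, against 13.5% of all 35116 windows of that length, and at least 2 matches were present in 2 of the 15 windows, against 1.71% of all windows. The ER stress pattern was present in 1 of the 15 windows, that of HSP90B1, with matches at -194 and -89, against 0.0769% of all windows. A match describes letters only, and binding was not measured here.

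The footprint libraries held 3742513 counts (knockdown-labelled) and 3795680 (control), and the RNA libraries 689375 and 554075. ALKBH3 itself, the check of the label, had 22 footprints in the knockdown-labelled library and 14 in the control library. Its log2 ratio was 0.59 (-0.36 to 1.54), so its footprints showed no drop. A 2-fold drop lay outside that interval, which covers counting error only, and the gene was under the minimum of 100 footprints. ALKBH3 had 0 RNA counts in both libraries, so RNA gave no check. The libraries are therefore named by their labels throughout. Epithelial markers were nearly absent from the footprints, with EPCAM at 2 and 0, KRT19 at 3 and 4 and KRT8 at 15 and 17 in the knockdown-labelled and control libraries, though KRT18 had 538 and 462 and KRT8 had 511 and 208 RNA counts. CDH1, CLDN7, TFF1, MUC5AC, GKN1 and CD3E were not analysed here. The gastric marker CLDN18 and the leukocyte marker PTPRC had 0 footprints in both. The mesenchymal markers VIM, at 16521 and 23326, and COL1A1, at 663 and 1001, were abundant. Of 13934 protein-coding genes, 1264 were listed at 0 footprints in both libraries, 135 of them with at least 100 RNA counts, so a marker near 0 in this table need not be absent from the cells, and the epithelial label could not be checked from it. VIM and COL1A1 had log2 ratios of -0.54 and -0.64, close to those of the cytosolic HSP90 genes below, and the part played by cell state in those results was not tested.

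The comparison asked whether footprints on the genes of the HSP90 system differed between the knockdown-labelled and the control cells. Both cytosolic HSP90 genes and 5 of their 6 co-chaperones carried fewer footprints in the knockdown-labelled library by more than counting error. HSP90B1 was 6.09% lower, also by more than counting error with the main scaling, and TRAP1 was 9.30% lower with an interval that held 0. Of the 10 genes, 9 had at least 100 footprints over both libraries, the minimum used, and FKBP5 did not. The median log2 ratio of those 9 was -0.57, against -0.02 over the 7050 genes that passed the same minimum. Intervals lay below 0 for 8 of the 9, which 22.3% of the 7050 genes did, and above 0 for none of them, which 18.2% did. The 9 genes are well covered, with 849 to 24059 footprints each, and among the 1986 genes with at least 800 footprints 41.0% had intervals below 0. At least 1.5-fold lower were 4 of the 9 (HSP90AA1, STIP1, FKBP4 and CDC37), against 4.61% of the 7050 genes and 4.23% of the 1986. That count was 4 with size factors and 3 with plain totals (without CDC37), but 1 with the authors' RPKM (HSP90AA1, against 2.50% of the 7050 genes). Among all genes 1.5-fold apart, 48.5% were the lower ones with the main scaling, 44.4% with size factors, 33.6% with plain totals and 23.0% with RPKM. None of the 9 was at least 2-fold apart, where 0.426% of the 7050 genes were at least 2-fold lower. Less of a message, fewer cells translating it and fewer ribosomes per cell cannot be told apart by footprints in such bulk lysates. The RNA values below do not settle this.

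**Figure D1:**
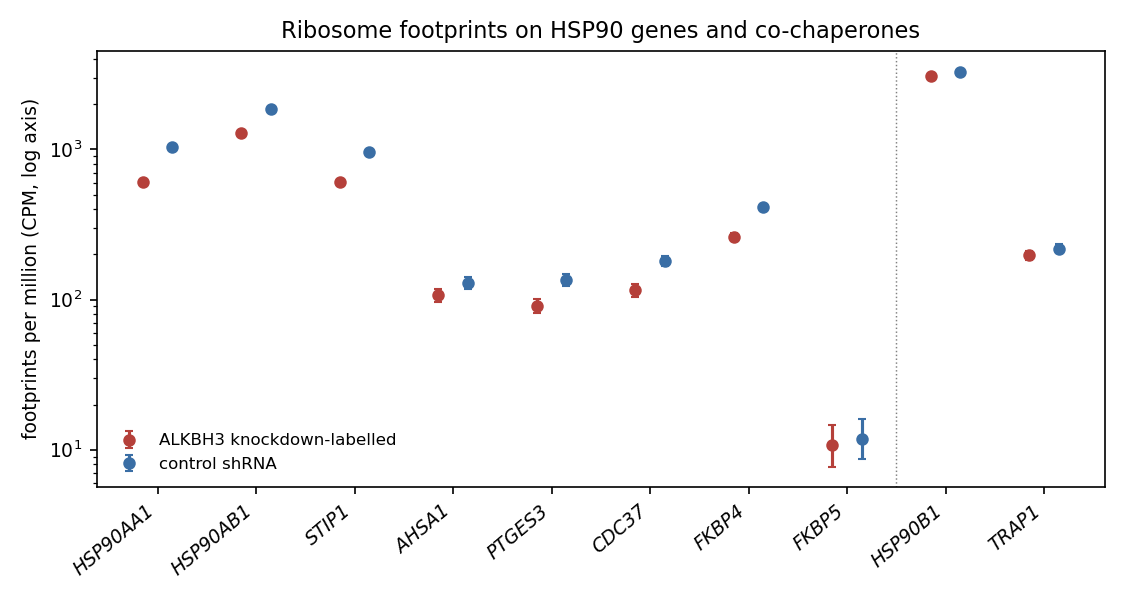
Footprint CPM (log axis) for each gene, with exact 95% Poisson intervals, in the knockdown-labelled (left point) and control (right point) libraries. The dotted line divides the 8 cytosolic genes from HSP90B1 (ER) and TRAP1 (mitochondria). HSP90AA1, HSP90AB1, STIP1, FKBP4, PTGES3 and CDC37 lie lower in the knockdown-labelled library, and HSP90B1 sits at 3093 and 3293 CPM.

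HSP90AA1 (ENSG00000080824, chromosome 14, 102547386 to 102606023, minus strand, hg19) had 2331 footprints in the knockdown-labelled library and 3827 in the control library. That was 609 CPM (counts per 1000000 of the scaled total, interval 584 to 634) in the knockdown-labelled and 1032 CPM (999.5 to 1065) in the control library. The log2 ratio was -0.76 (-0.84 to -0.69), a level 41.0% lower, and 1.21% of the 1986 well-covered genes had a lower ratio. The intervals of the 2 libraries did not overlap. HSP90AB1 (ENSG00000096384, chromosome 6, 44215603 to 44221620, plus strand) had 4921 and 6845 footprints, or 1285 CPM (1249 to 1321) in the knockdown-labelled and 1846 CPM (1802 to 1890) in the control library. Its log2 ratio was -0.52 (-0.58 to -0.47), which 6.24% of the well-covered genes lay below.

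The ratio of the cytosolic forms can be read within a library, free of any scaling between libraries. For every 100 HSP90AB1 footprints there were 47.4 HSP90AA1 footprints in the knockdown-labelled library and 55.9 in the control library, a log2 change of -0.24 (-0.33 to -0.15). The inducible form was thus further down than the constitutive form by more than counting error. The 2 genes are close paralogs, and the table lists 3 rows with a symbol starting HSP90, none of them a pseudogene, and the sources used here do not say how reads shared with copies were assigned, so the split between the paralogs is uncertain.

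HSP90B1, the ER form (ENSG00000166598, chromosome 12, 104324112 to 104341704, plus strand), had 11846 footprints in the knockdown-labelled library and 12213 in the control library. At 3093 CPM (3037 to 3149) against 3293 CPM (3235 to 3352), its log2 ratio was -0.09 (-0.13 to -0.05). That was close to the median of -0.07 over the well-covered genes, and its sign turned with the authors' RPKM scaling (0.028). TRAP1, the mitochondrial form (ENSG00000126602, chromosome 16, 3708038 to 3767598, minus strand), had 756 and 807 footprints in the knockdown-labelled and control libraries, with a log2 ratio of -0.14 (-0.28 to 0.0023), and its interval held 0. Relative to HSP90B1, HSP90AA1 was lower by 0.67 on the log2 scale (interval of the change -0.75 to -0.59) and HSP90AB1 by 0.43 (-0.50 to -0.37), both within-library comparisons. TRAP1 relative to HSP90B1 changed by -0.05 (-0.20 to 0.10). Both cytosolic forms were thus lower relative to HSP90B1 by more than counting error. No difference between the organelle forms was detectable at this depth. The ratios of the 1986 well-covered genes had a standard deviation of 0.33. How often 2 such genes lie as far apart was not computed, so these gaps are not read as an effect of compartment.

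**Figure D2:**
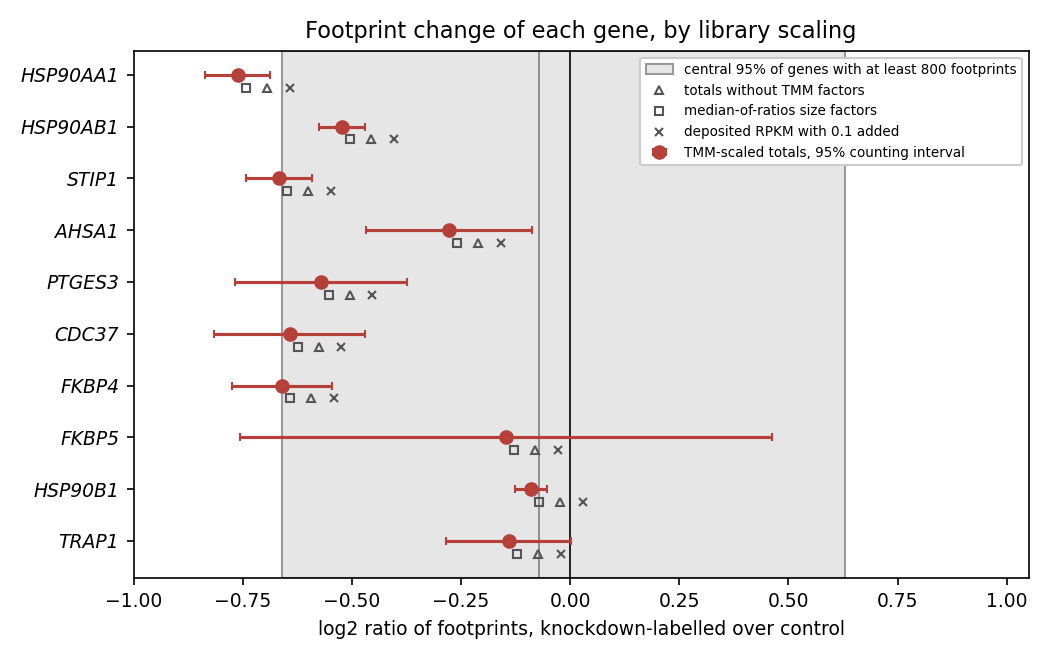
Log2 ratio of footprints, knockdown-labelled over control, for each gene with its 95% counting interval (circles), and the same ratio under 3 other scalings (open triangles, open squares and crosses). The grey band is the central 95% of 1986 genes with at least 800 footprints (-0.66 to 0.63) and the grey line their median. HSP90AA1 lies below the band at -0.76, STIP1 (-0.67) and FKBP4 (-0.66) lie at its edge, and HSP90B1 and TRAP1 lie near the line.

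Among the co-chaperones that bind the HSP90 cycle early, STIP1 (ENSG00000168439, chromosome 11, 63953587 to 63972015, plus strand) had 2314 footprints in the knockdown-labelled library and 3560 in the control library. Its log2 ratio was -0.67 (-0.74 to -0.59), and 2.27% of the well-covered genes lay lower. CDC37 (ENSG00000105401, chromosome 19, 10501810 to 10514209, minus strand) had 441 and 667 footprints in the same order of libraries, knockdown-labelled then control, with a log2 ratio of -0.64 (-0.82 to -0.47). Both thus lay about where HSP90AA1 did. Of the factors that act later in the cycle, PTGES3 (ENSG00000110958, chromosome 12, 57057127 to 57082084, minus strand) had 348 footprints in the knockdown-labelled library and 501 in the control library, a log2 ratio of -0.57 (-0.77 to -0.37). AHSA1 (ENSG00000100591, chromosome 14, 77924373 to 77935817, plus strand) had 408 and 479, a log2 ratio of -0.28 (-0.47 to -0.09), and 22.2% of the well-covered genes lay lower. The change of AHSA1 was the smallest among the measured cytosolic genes, and its interval reached 0 under the authors' RPKM scaling (-0.16).

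The immunophilins differed widely in footprint counts, FKBP5 having the fewest of the 10 genes. FKBP4 (ENSG00000004478, chromosome 12, 2904119 to 2913124, plus strand) had 997 footprints in the knockdown-labelled library, or 260 CPM (244 to 277), and 1526 in the control library, which is 411 CPM (391 to 433). Its log2 ratio was -0.66 (-0.78 to -0.55). FKBP5 (ENSG00000096060, chromosome 6, 35541362 to 35696360, minus strand) had 41 and 44 footprints, or 10.7 CPM (7.68 to 14.5) in the knockdown-labelled library and 11.9 CPM (8.62 to 15.9) in the control library. Its log2 ratio was -0.15 (-0.76 to 0.46), so the depth could not tell no change from one as large as that of FKBP4. Per 100 FKBP4 footprints there were 4.11 FKBP5 footprints in the knockdown-labelled and 2.88 in the control library, a log2 change of 0.51 (-0.11 to 1.14) that held 0.

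Set against cytosolic HSP90 within each library (7252 footprints of HSP90AA1 and HSP90AB1 in the knockdown-labelled and 10672 in the control library), most co-chaperones kept their proportion within counting error. Per 100 such footprints, STIP1 had 31.9 in the knockdown-labelled and 33.4 in the control library, a log2 change of -0.06 (-0.15 to 0.02). FKBP4 had 13.7 and 14.3, a change of -0.06 (-0.18 to 0.07), CDC37 6.08 and 6.25 (-0.04, -0.22 to 0.14), and PTGES3 4.80 and 4.69 (0.03, -0.17 to 0.23). These 4 intervals held 0, and each gives the size of change that the depth still allows. AHSA1 was higher relative to cytosolic HSP90, at 5.63 against 4.49 (0.33, 0.13 to 0.52), as were TRAP1, at 10.4 against 7.56 (0.46, 0.31 to 0.61), and HSP90B1, at 163 against 114 (0.51, 0.46 to 0.57).

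**Figure D3:**
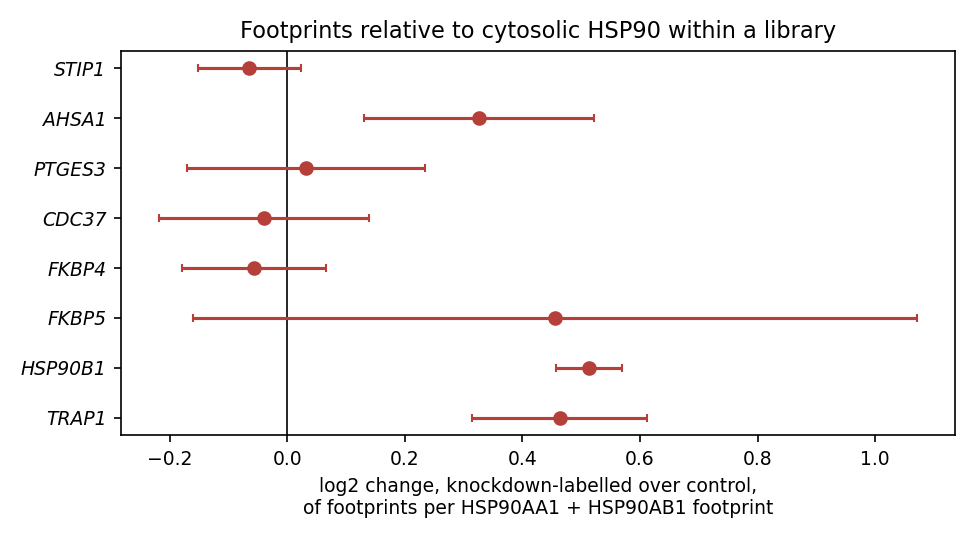
Log2 change, knockdown-labelled over control, in each gene's footprints per footprint of HSP90AA1 and HSP90AB1 in the same library, with 95% counting intervals. STIP1, PTGES3, CDC37 and FKBP4 have intervals that hold 0, FKBP5 has a wide one, and AHSA1, HSP90B1 and TRAP1 lie above 0.

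Levels of different genes can be compared only per length, for which the authors' RPKM (reads scaled by gene length and library size) was used. In the knockdown-labelled library HSP90B1 stood first at 918 RPKM, followed by HSP90AA1 at 352 (counting interval 338 to 367) and HSP90AB1 at 349 (339 to 359), which overlapped. STIP1 came next at 208 RPKM (199.5 to 217), then PTGES3 at 123 (111 to 137) and FKBP4 at 113 (106 to 120), which also overlapped. CDC37 at 87.7 RPKM, AHSA1 at 86.0 and TRAP1 at 82.5 could not be ordered, and FKBP5 was far below at 4.58 (3.28 to 6.21). In the control library the order was the same for HSP90B1 (900.1 RPKM), HSP90AA1 (549.9), HSP90AB1 (461), STIP1 (304), PTGES3 (169), FKBP4 (164), CDC37 (126), AHSA1 (96.0), TRAP1 (83.8) and FKBP5 (4.67). There HSP90AA1 (533 to 568) and HSP90AB1 (450.5 to 472) did not overlap, nor did CDC37 (117 to 136) and AHSA1 (87.6 to 105), while PTGES3 overlapped FKBP4. The whole order rests on the authors' lengths, which differed between the assays. Counts and RPKM imply a length of PTGES3 that is 0.200 times that of HSP90AB1 in the footprint libraries and 1.20 times in both RNA libraries, and of AHSA1 that is 0.336 times in the footprint libraries and 1.06 times (knockdown-labelled) and 1.07 times (control) in the RNA libraries. The implied length of HSP90AA1 is 0.469 times that of HSP90AB1 in the footprint libraries and 1.90 times (knockdown-labelled) and 1.89 times (control) in the RNA libraries, and by counts HSP90AB1 was the higher in both footprint libraries.

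The RNA libraries carried a limit that touches every RNA value of these genes. The 1997 antisense rows of the table held 42.5% of the RNA counts in the knockdown-labelled library and 46.0% in the control library, and 0 footprints. Among 622 overlapping pairs of an antisense row and a protein-coding gene with at least 100 RNA counts, the antisense row had the higher RNA count in 552 (88.7%), and among 1103 such pairs in footprints it did so in 0. The sources used here do not give the strand setting of the counting, and whether the RNA count of a gene stands for its own mRNA was not settled, so the RNA values and the ratios to RNA are given as the table lists them.

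RNA of these genes was also thinly covered. HSP90AA1 had 64 RNA counts in the knockdown-labelled library and 41 in the control library, HSP90AB1 had 79 and 26, and HSP90B1 had 64 and 45. These were the 3 genes with at least 100 RNA counts over both libraries. The RNA log2 ratios were 0.20 (-0.36 to 0.77) for HSP90AA1, 1.15 (0.52 to 1.79) for HSP90AB1 and 0.07 (-0.48 to 0.62) for HSP90B1. Of the 3, HSP90AB1 was at least 2-fold higher in the knockdown-labelled library, as were 3.05% of the 1311 genes that passed the same minimum. None of the 3 had an RNA interval below 0.

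The remaining 7 genes had fewer counts. STIP1 had 35 in the knockdown-labelled and 5 in the control library, TRAP1 25 and 16, FKBP4 21 and 6, CDC37 18 and 4, PTGES3 13 and 2, and AHSA1 3 and 1. FKBP5 had 0 in both, which allows up to 4.17 CPM in the knockdown-labelled and 5.65 CPM in the control library, with counting error alone. Unscaled counts were higher in the knockdown-labelled library for all 9 genes with any RNA count. That library was also the deeper (689375 against 554075 counts), and the share of all genes with a higher count was not computed. On scaled totals the RNA intervals of HSP90AA1, HSP90B1, TRAP1 (-0.69 to 1.10) and AHSA1 (-1.91 to 3.69) held 0. Those of HSP90AB1, STIP1, FKBP4, PTGES3 and CDC37 lay above 0. Of these genes only HSP90AB1 had at least 100 RNA counts. The share of all genes with RNA intervals above 0 was not computed. Summed over the 10 genes the RNA counts were 322 in the knockdown-labelled and 146 in the control library, a log2 ratio of 0.70 (0.42 to 0.98). Over the 1985 protein-coding genes with at least 800 footprints the sums were 47511 and 29080, a log2 ratio of 0.27 (0.25 to 0.29), also higher in the knockdown-labelled library but by less.

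**Figure D4:**
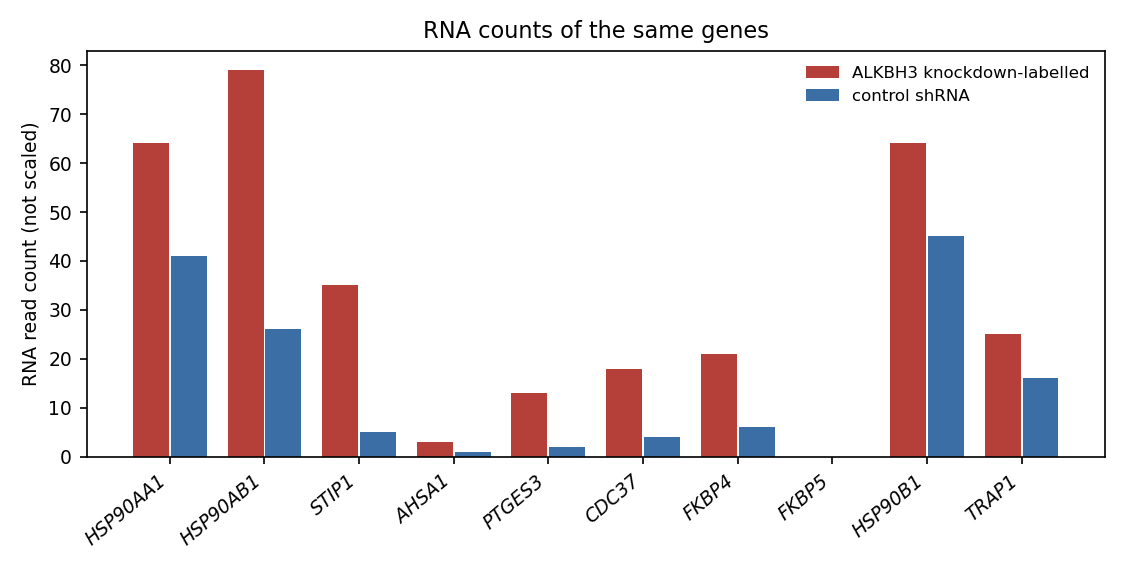
RNA read counts (unscaled) of each gene in the knockdown-labelled (left bar) and control (right bar) libraries. The knockdown-labelled library is the deeper by total (689375 against 554075 counts), no bar is above 79 counts, and FKBP5 has none.

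Rows on the opposite strand overlapped 2 of the 10 genes. RP4-816N1.7, an antisense row that lies over 6803 bases of FKBP4, had 528 RNA counts in the knockdown-labelled library and 553 in the control library, beside 21 and 6 for FKBP4 itself, and 0 footprints. DNASE1, which overlaps 59 bases of TRAP1, had 1030 and 683 RNA counts and 0 footprints. Where a gene and its opposite-strand partner overlap, their RNA reads cannot be told apart here.

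The ratio of footprints to listed RNA counts could be formed for HSP90AA1, HSP90AB1 and HSP90B1, and with the strand of the RNA counts unsettled it is not read as translational efficiency. The change, knockdown-labelled over control, was -0.96 (-1.53 to -0.40) for HSP90AA1, -1.68 (-2.31 to -1.04) for HSP90AB1 and -0.16 (-0.71 to 0.39) for HSP90B1. At least 2-fold lower was 1 of the 3, HSP90AB1, as were 9.97% of 381 genes, and with plain totals HSP90AA1 (-1.02) passed 2-fold as well. The median over those 381 genes was 0.04 and their standard deviation 0.72. For HSP90AB1 most of the change came from its RNA ratio of 1.15, set by 26 counts in the control library, and not from its footprint ratio of -0.52.

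The wider HSP90 machinery was read through 8 further lists. Their counts stand beside the 7050 genes, of which 22.3% had intervals below 0 and 18.2% above, or 17.0% and 24.5% with plain totals and 13.1% and 29.5% with RPKM. The share below 0 was 41.0% among the 1986 genes with at least 800 footprints. Several genes of these lists, such as CALR, NUDC and HSPA8, are that well covered, so the 22.3% is a low mark for them. Of 14 other HSP90 co-chaperones measured, intervals were below 0 for 11 (9 with plain totals, 8 with RPKM) and above 0 for 0, with a median of -0.39. NUDC, a co-chaperone tied to dynein, had 1361 footprints in the knockdown-labelled and 2145 in the control library (-0.70, -0.80 to -0.60). ST13 (HIP), which works with HSP70 and STIP1, was at -0.59 (-0.81 to -0.37), the cyclophilin PPID at -0.81 (-1.29 to -0.33), and TOMM34, which couples both chaperones to mitochondrial import, at -0.44 (-0.53 to -0.34). The R2TP and TTT complexes, which use HSP90 to assemble large kinases and polymerases, had a median of -0.16 over 6 measured genes, with 3 intervals below 0 and 0 above, and 1 below 0 with plain totals or RPKM. TELO2 was at -0.47 (-0.76 to -0.18), RUVBL1 at -0.19 (-0.32 to -0.06) and TTI1 at -0.17 (-0.31 to -0.04).

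Of 15 clients of HSP90 measured, 6 had intervals above 0 and 1 below, with a median of 0.12. With RPKM the count above 0 was 9 and that below 0 was 0, a scaling under which the share above 0 was higher over all genes too. The receptor kinase MET had 2810 footprints in the knockdown-labelled and 2173 in the control library (0.32, 0.24 to 0.40), the ligand-activated transcription factor AHR 876 and 661 (0.36, 0.21 to 0.51), and the insulin receptor INSR 128 and 83 (0.58, 0.18 to 0.97). Footprints do not report the amount or folding of the client proteins.

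Partners in each compartment were set beside the HSP90 forms. Cytosolic chaperones outside HSP90, most of them heat-inducible and some, such as HSPA8, mainly constitutive, had intervals below 0 for 10 of 10 and a median of -0.96, from -3.11 for HSPA1B, whose reads may be shared with the near-identical HSPA1A, to -0.26. HSP90AA1 and HSP90AB1 lay within that wide range but above its median, and of the 10 only HSPA4 (-0.26) lay above HSP90AB1 (-0.52). HSPA8, at -0.72 (-0.77 to -0.68), was close to HSP90AA1. ER chaperones and folding enzymes had a median of -0.27 over 15 measured, 9 of them with intervals below 0 and 0 above, or 8 and 1 with RPKM. CALR was at -0.45 (-0.47 to -0.42), CRELD2 at -0.51 (-0.62 to -0.41), MANF at -0.69 (-0.98 to -0.40) and SDF2L1 at -0.67 (-0.92 to -0.42). Of the 15, 4 had a higher ratio than HSP90B1 (DNAJB9, DNAJB11, DNAJC3 and HERPUD1, singled out after their values were seen), each with an interval that held 0, and 11 had a lower one. Of 10 mitochondrial chaperones and proteases 3 had intervals below 0 and 3 above, near the shares over all genes, with a median of 0.01. HSPD1 (HSP60) was at -0.92 (-1.003 to -0.83) and GRPEL1, a nucleotide exchange factor of mitochondrial HSP70, at -0.78 (-0.96 to -0.60), while the protease YME1L1 was at 0.27 (0.13 to 0.41). Of the 10, 6 had a higher ratio than TRAP1 and 4 a lower one.

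**Figure D5:**
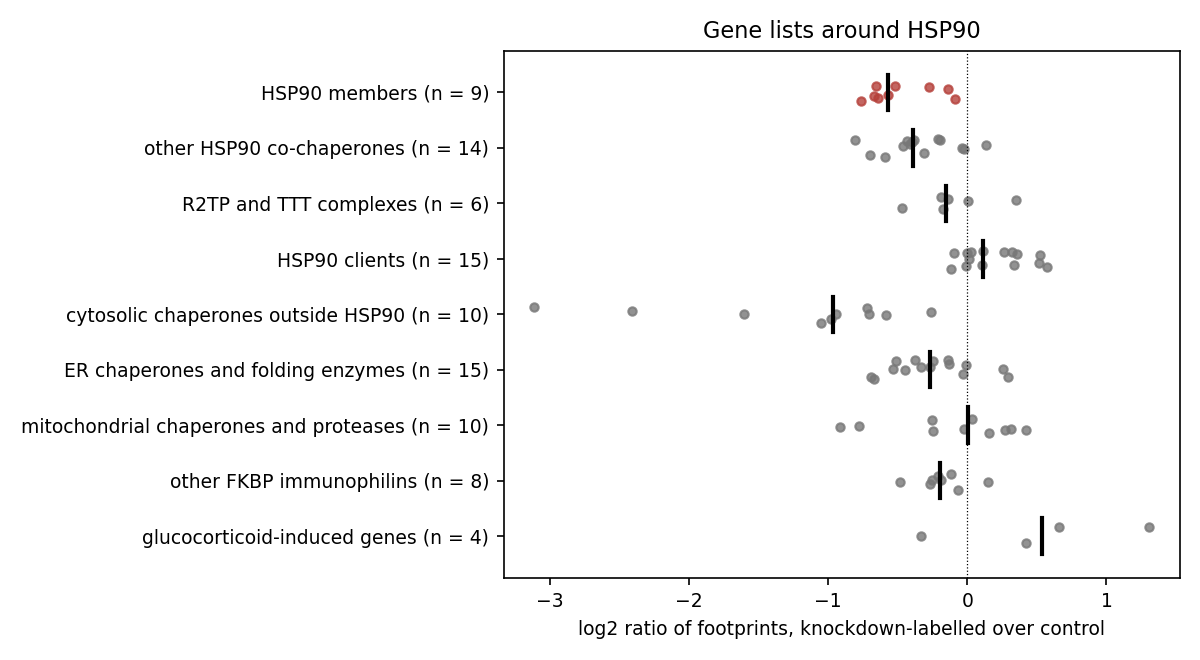
Log2 ratio of footprints, knockdown-labelled over control, for each gene with at least 100 footprints in the HSP90 group (red) and in 8 further lists (grey). Black bars are list medians: -0.57 for the HSP90 group, -0.39 for other co-chaperones, 0.12 for clients and -0.96 for cytosolic chaperones outside HSP90.

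Likeness to the cytosolic forms was read as the smallest gap in footprint log2 ratio over the 2 footprint libraries, among 234 protein-coding genes with at least 5000 footprints. Nearest to HSP90AA1 were TPI1 (-0.76), a glycolytic enzyme, HSPA8 (-0.72), the constitutive HSP70, and TPM2 (-0.83), a tropomyosin. Nearest to HSP90AB1 were ANXA1 (-0.53), an annexin, HIST1H2AM (-0.53), a histone gene with near-identical copies, and PTRF (-0.51), a caveolar coat protein. A gap between 2 libraries is a weak measure of likeness.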

How the data were processed

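Read counts and RPKM per gene were deposited by the authors in one table of 16692 genes with hg19 spans. Per the submitters' processing notes, FastQC, cutadapt, Bowtie and STAR were used, with no versions or roles named. The sources used here do not say how counts were made or how strand and multi-mapping reads were handled. Columns were matched to libraries by the library names in the titles, and 2 further columns of values were not used.

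Counts gave a log2 ratio, knockdown-labelled over control, for each assay, using a prior count of 0.5, on totals scaled by TMM (edgeR 4.0.16, R 4.3.3). The TMM factors were 1.02 and 0.977 for footprints and 1.04 and 0.958 for RNA. Intervals (95%) come from counting error. Amplified reads that carry no molecular identifier need not be separate molecules, and so the intervals and the limit for a count of 0 (3 counts) cover counting error only. Genes needed 100 reads over both libraries of an assay. A gene was counted as apart when it passed the stated fold and its interval left out 0. The background of at least 800 footprints was added after the values were seen. CPM is per 1000000 of the scaled total. The RPKM deposited by the authors served for levels between genes and as an alternative scaling. With 4 libraries in 4 groups no model with residual degrees of freedom exists, and no test was run. The calculation was tested on simulated counts.

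Genes were named by rule: the 10 members, up to 4 measured genes of each list whose interval bound nearest 0 lay furthest from it, HSP90 rows, opposite-strand rows and the 3 nearest genes of each cytosolic form. For the clients, 1 gene that the rule names is not reported here. The members and the lists were chosen with earlier results of these data known. Alternatives were plain totals, median-of-ratios size factors (DESeq2 1.42.0), RPKM with 0.1 added, a prior count of 5, minimums of 20 and 1 reads, other gene sets, a 1.5-fold minimum and other sets of members.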

Additional observations from a re-analysis of the deposited data

How the results depend on the processing

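With 1 library per group, no replicate could be left out, and every value compares single libraries. No paired analysis was possible because each group has 1 library. The median footprint log2 ratio of the HSP90 genes ran from -0.64 (cytosolic genes alone, chosen after seeing the data) to -0.45 with the deposited RPKM, and the direction held under all settings run. The sum over the 10 genes (-0.37) was -0.30 with plain totals and with RPKM, -0.25 without HSP90AA1 and HSP90AB1 and -0.61 for the cytosolic genes alone, since HSP90B1 holds many of the footprints. At a 1.5-fold minimum 4 genes were apart (1 with RPKM), against 0 at 2-fold. Intervals below 0 numbered 8 with size factors, 7 with plain totals (without HSP90B1) and 6 with RPKM (without HSP90B1 and AHSA1), and HSP90B1 turned to 0.028 with RPKM. RPKM moved the median of all genes from -0.02 to 0.10, so values on the 2 scales are to be read against those medians. In RNA the median of the genes measured (0.20 over 3) became 1.15 at minimums of 20 and 1 reads, and that of footprints over RNA (-0.96) became -1.68, since more genes of few counts then entered. HSP90AA1 passed 2-fold in footprints over RNA with plain totals (-1.02). Depth limits FKBP5 in footprints and all 10 genes in RNA.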

Other observations

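Genes that glucocorticoids induce were read because FKBP5 is one of the best known of them. Of 8 such genes in the table, 4 had at least 100 footprints. Among these 4, 3 had intervals above 0 and 1 below, against 18.2% and 22.3% of the 7050 genes, with a median of 0.54. Under the minimum, PER1 had 33 footprints in the knockdown-labelled library and 51 in the control library (-0.67, -1.29 to -0.04). The intervals of CEBPD, ERRFI1 and MT2A, also under the minimum, held 0. TSC22D3 (GILZ), a mediator of glucocorticoid action, had 108 footprints in the knockdown-labelled library and 42 in the control library, a log2 ratio of 1.31 (0.79 to 1.82). KLF9, a transcription factor, had 196 and 120 (0.66, 0.33 to 0.99) and SGK1, a kinase, 700 and 507 (0.42, 0.25 to 0.58). DUSP1, a phosphatase, had 216 and 263 (-0.33, -0.59 to -0.07), an interval that reached 0 with RPKM. FKBP5, at 41 and 44 footprints, is too thinly covered to place among them.

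Other FKBP immunophilins, most of which are not HSP90 co-chaperones, had a median of -0.20 over 8 measured, with 4 intervals below 0 and 0 above, though 2 were below 0 with plain totals and 1 with RPKM. The collagen-folding FKBP10 had 904 footprints in the knockdown-labelled library and 1055 in the control library (-0.27, -0.40 to -0.14), and FKBP14 was at -0.48 (-0.86 to -0.10), FKBP3 at -0.26 (-0.45 to -0.06) and FKBP9 at -0.21 (-0.39 to -0.04).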
